A study of Mus musculus with 31 samples.

Results

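Cohesin is the ring-shaped protein complex that holds sister chromatids together, and 8 genes that encode its subunits were followed here across fetal mouse gonads. Of these, 3 encode meiotic subunits (Rec8, Smc1b and Stag3) and 5 encode general subunits (Smc1a, Smc3, Rad21, Stag1 and Stag2). The members were chosen by name. Each was read from probe sets annotated with that symbol alone, and where a gene had several probe sets, the one that was brightest on average across the 31 arrays was taken. They are 8 of the 18194 genes that could be named and tested in this way. The 8 genes have 19 such probe sets between them, and Rec8, Smc1b and Stag3 have 1 each.

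RNA came from whole ovaries and testes of Wv/Wv and wild-type embryos, and each sample was hybridised to 1 Affymetrix array. Wv is a viable allele of Kit, the receptor tyrosine kinase that primordial germ cells need for survival and migration, and gonads of homozygous embryos are known to hold few germ cells. The Wv/Wv groups were ovaries of embryos aged 12, 14 and 16 dpc (days post coitum) with 2, 3 and 3 arrays, and testes at 12, 14 and 16 dpc with 3, 2 and 3 arrays. The wild-type groups were ovaries at 12, 14 and 16 dpc with 2, 3 and 3 arrays, and testes at 12, 14 and 16 dpc with 1, 3 and 3 arrays. The labels call the replicates biological and do not say whether each came from its own embryo or litter, or from a pool, so the tests measure the spread between these samples. All values are log2 signals, in which a difference of 1 is a 2-fold change, and a value below 5.39, the 40th percentile of all deposited values, is called low. In RNA of whole gonads, fewer cells of a type and less RNA per cell cannot be told apart.

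In dividing somatic cells the ring is built from Smc1a and Smc3, closed by the kleisin Rad21 and bound by either Stag1 or Stag2. Meiotic cells replace part of this set: Smc1b takes the place of Smc1a, Rec8 that of Rad21, and Stag3 that of Stag1 and Stag2, while Smc3 serves in both kinds of ring. Meiotic cohesin forms the base of the chromosome axis on which the synaptonemal complex is assembled. Germ cells of the fetal mouse ovary enter meiosis in the days covered here, and those of the fetal testis do not.

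The promoter sequences of the meiotic genes are shown because Smc1b and Stag3 moved together over the groups and Rec8 did not. They are the bases just before the annotated start, 5′ to 3′ on the strand of the gene, from RefSeq on build GRCm38.p6. Capitals mark 2 motifs looked for on both strands: TCCCGC, the core bound by E2F-type repressors such as E2f6 (reverse complement GCGGGA), and CACGTG, the E-box bound by Max-type factors. The motifs do not overlap each other. For Smc1b the stretch is chr15:85131958-85132207 on the minus strand, outside and just upstream of the gene. For Stag3 it is chr5:138280259-138280508 on the plus strand, upstream of the start used in the RefSeq table but within the annotated span of the gene. For Rec8 it is chr14:55617916-55618001 on the plus strand, the 86 bases that lie before the outermost annotated start.
Smc1b: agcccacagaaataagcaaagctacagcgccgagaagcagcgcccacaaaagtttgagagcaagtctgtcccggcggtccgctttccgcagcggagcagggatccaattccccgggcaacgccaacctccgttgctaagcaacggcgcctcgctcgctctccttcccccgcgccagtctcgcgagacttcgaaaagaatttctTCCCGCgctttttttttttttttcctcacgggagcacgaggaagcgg
Stag3: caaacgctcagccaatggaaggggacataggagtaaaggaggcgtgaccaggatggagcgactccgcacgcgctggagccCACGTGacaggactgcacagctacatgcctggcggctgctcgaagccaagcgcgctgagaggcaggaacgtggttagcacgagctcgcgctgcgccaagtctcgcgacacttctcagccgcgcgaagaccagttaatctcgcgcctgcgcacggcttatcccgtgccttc
Rec8: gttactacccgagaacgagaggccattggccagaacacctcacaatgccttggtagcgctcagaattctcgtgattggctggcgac
The E2F-type core lay 47 bases before the Smc1b start. At Stag3 it began 2 bases before the start and ran across it, and at Rec8 it lay 38 bases before the start used in the table, so both matches fall outside the printed stretches. Of the 8 genes 6 have a promoter in the RefSeq table, all except Rad21 and Stag2. Each of the 6 held the core in the 300 bases around its start, general subunits (Smc1a, Smc3 and Stag1) included, as did 19.98% of the 32851 promoters in the table. The E-box was found at Stag3 alone among the 6, 170 bases before the start, and in 7.15% of all promoters. A match of letters is a description and no evidence of binding.

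The 31 arrays fell into 2 kinds. In 10 narrow-spread arrays the signals of an array had an SD of 1.77 to 2.18, against 2.33 to 2.39 in the other 21, and the Gapdh probe sets at the 3′ and 5′ ends of the transcript differed by 0.70 ± 0.19 on narrow arrays and 2.01 ± 0.19 on the rest (SD). The narrow arrays were Wv/Wv ovary 14 dpc replicates 2 and 3, Wv/Wv ovary 16 dpc replicate 2, Wv/Wv testis 14 dpc replicate 2, Wv/Wv testis 16 dpc replicate 1, wild-type ovary 14 dpc replicate 1, each of the 3 wild-type ovary arrays at 16 dpc, and replicate 1 of wild-type testes at 16 dpc, which had the narrowest spread of all. Calls that move with the kind of array are also given from a class-adjusted fit, in which the kind of array is a term and wild-type testis 16 dpc replicate 1 is left out. Tissue labels were borne out from 14 dpc: Foxl2, a transcription factor of pregranulosa cells, was at most 7.23 on Wv/Wv testis arrays and 6.98 on wild-type testis arrays, against 9.52 or higher on Wv/Wv ovary arrays and 9.34 or higher on wild-type ovary arrays. The germ cell gene Dazl was above the low limit on 3 of 16 Wv/Wv arrays and on 15 of 15 wild-type arrays. Wv/Wv ovary 14 dpc replicate 1 stood apart from its group, with Dazl at 7.54 and Ddx4 at 6.46, against 4.43 to 4.51 and 3.13 to 3.28 on replicates 2 and 3. It was also the only array of its group outside the narrow kind, and the part of the array kind was not tested. Between Wv/Wv and wild-type ovaries, blood and tubule markers also moved: 3 of 5 erythroid genes were lower (median of the list -2.31) and 2 of 4 mesonephric tubule genes higher (median 1.26) at 14 dpc, where 4.08% of all genes were lower and 0.291% higher. At 16 dpc 2 of 5 erythroid genes were lower and 1 of 4 tubule genes higher, where 3.74% of all genes were called (2.35% lower). Their part in the results was not tested.

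Smc1b, which pairs with Smc3 in meiotic rings, was the subunit with the widest range, 6.74 between its lowest and highest group mean. In ovaries at 14 dpc it was 6.16, 6.33 and 5.86 on the 3 Wv/Wv arrays, against 11.22, 11.41 and 10.18 on the 3 wild-type arrays. At 16 dpc it was 5.54, 4.99 and 5.49 in Wv/Wv ovaries, against 11.83, 11.45 and 11.58 in wild-type ovaries. The groups were far apart at both ages, and the Wv/Wv values sat near or under the low limit. Smc1b was lower in Wv/Wv ovaries by -4.82 ± 0.29 at 14 dpc (SE, adjusted p = 1.33e-10) and by -6.28 ± 0.29 at 16 dpc (adjusted p = 1.52e-12). The 16 dpc difference is at least 70.8-fold when low Wv/Wv values are set to the limit. Without Wv/Wv ovary 14 dpc replicate 1, the array with more Dazl signal and not of the narrow kind, the 14 dpc difference was -4.85 ± 0.33.

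At 12 dpc Smc1b was 4.86 and 4.89 in Wv/Wv ovaries, against 5.88 and 6.17 in wild-type ovaries. The difference of -1.15 ± 0.36 did not pass (adjusted p = 1), in a comparison in which 0.0934% of all genes were called. In Wv/Wv testes at 12 dpc the arrays gave 5.02, 5.00 and 5.25, against 5.82 on the only wild-type array. This difference, -0.73 ± 0.42, did not pass either, where 0.033% of genes were called.

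In testes at 14 dpc Smc1b was 5.32 and 5.97 on the Wv/Wv arrays, against 7.93, 8.26 and 8.30 on the wild-type arrays. The Wv/Wv arrays were all lower, and the difference was -2.52 ± 0.33 (adjusted p = 5.42e-05), at least 5.60-fold. At 16 dpc the Wv/Wv testes gave 5.32, 5.01 and 5.09, against 6.00, 7.10 and 5.87 in wild-type testes. Wild-type replicate 2 stood above the other wild-type testes, and the difference of -1.18 ± 0.29 did not pass (adjusted p = 0.0894). It passed in 5 of 12 other settings, among them the class-adjusted fit (-1.38 ± 0.32, adjusted p = 0.028), in which 0.989% of all genes were called lower. It also passed without wild-type testis 16 dpc replicate 3 (-1.41, adjusted p = 0.0299) or wild-type ovary 14 dpc replicate 3 (-1.18, adjusted p = 0.0288).

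Stag3, the meiotic partner that binds the kleisin in place of Stag1 or Stag2, followed the same course in ovaries. At 14 dpc it was 6.63, 5.91 and 5.90 in Wv/Wv ovaries, against 10.45, 10.79 and 10.00 in wild-type ovaries. At 16 dpc it was 6.29, 5.22 and 6.53 in Wv/Wv ovaries, against 10.40, 10.57 and 10.36 in wild-type ovaries. No Wv/Wv array came near a wild-type one. The differences were -4.27 ± 0.43 at 14 dpc (adjusted p = 3.12e-07) and -4.43 ± 0.43 at 16 dpc (adjusted p = 1.45e-07, at least 20.8-fold). Without Wv/Wv ovary 14 dpc replicate 1 the 14 dpc difference was -4.51 ± 0.47.

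At 12 dpc Stag3 was 6.39 and 5.48 in Wv/Wv ovaries, against 7.06 and 7.55 in wild-type ovaries, a difference of -1.36 ± 0.53 that did not pass (adjusted p = 1). Testes of 12 dpc embryos were close to each other, with 6.80, 6.73 and 6.77 on the Wv/Wv arrays and 7.26 on the wild-type array. At 14 dpc the testes separated: 6.18 and 5.57 in Wv/Wv, against 8.53, 8.29 and 8.57 in wild type. This difference was -2.58 ± 0.48 (adjusted p = 0.00457), and it lost its call when Wv/Wv testis 14 dpc replicate 2 was left out (-2.28, adjusted p = 0.23).

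Stag3 in testes at 16 dpc was 4.79, 6.03 and 6.15 on the Wv/Wv arrays, against 7.13, 9.25 and 7.76 on the wild-type arrays. Wild-type replicate 2 was the highest testis value of the gene, and Wv/Wv replicate 1 the lowest. The difference was -2.39 ± 0.43 (adjusted p = 0.00381). It lost its call without wild-type testis 16 dpc replicate 2 (-1.79, adjusted p = 0.0579), without Wv/Wv testis 16 dpc replicate 1 (-1.95, adjusted p = 0.0524), and when only the arrays compared were fitted (-2.39, adjusted p = 0.978). Dazl and Ddx4 were also highest on wild-type replicate 2 within this group, at 10.15 and 10.40, against 8.80 to 8.99 and 8.20 to 9.35 on the other wild-type arrays.

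**Figure D1:**
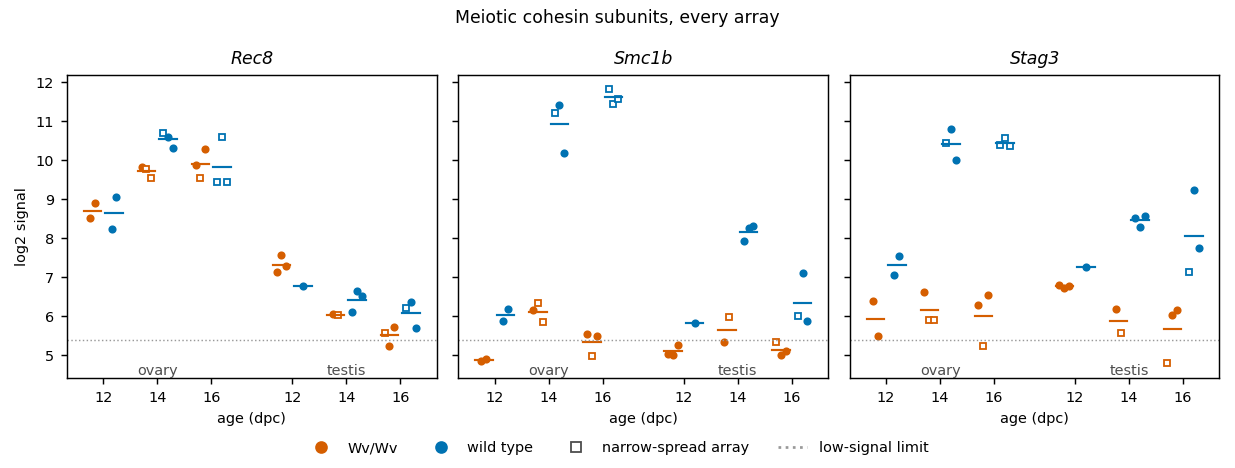
Log2 signal of Rec8, Smc1b and Stag3 on every array, by tissue and age in dpc, with Wv/Wv in orange left of wild type in blue; horizontal bars are group means, open squares the narrow-spread arrays, and the dotted line the low-signal limit of 5.39. Smc1b and Stag3 are high in wild-type ovaries at 14 and 16 dpc and low in Wv/Wv ovaries, while Rec8 is high in ovaries of both genotypes and low in testes of both.

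Rec8, a meiotic kleisin that closes the ring and is cut to release it, did not share this course. In ovaries at 12 dpc it was 8.52 and 8.89 on Wv/Wv arrays, against 8.24 and 9.07 on wild-type arrays, and the groups overlapped (0.05 ± 0.34, adjusted p = 1). At 16 dpc it was 9.87, 9.54 and 10.28 in Wv/Wv ovaries, against 9.45, 10.60 and 9.44 in wild-type ovaries. These groups overlapped too, and the difference was 0.07 ± 0.28 (adjusted p = 0.895), with a 95% interval of -0.51 to 0.65. The kinds of array were unequal here, with every wild-type array narrow. Within narrow arrays, 1 in Wv/Wv against 3 in wild type, Rec8 differed by -0.29.

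At 14 dpc Rec8 was 9.82, 9.79 and 9.54 in Wv/Wv ovaries, against 10.71, 10.61 and 10.32 in wild-type ovaries. Both groups were high on the scale of the gene, and the Wv/Wv arrays were all lower than the wild-type ones. Within narrow arrays Rec8 differed by -1.04 and within wide arrays by -0.65, from 1 or 2 arrays a side. Over all arrays the difference was -0.83 ± 0.28 and did not pass (adjusted p = 0.108). It passed in the class-adjusted fit (-0.80 ± 0.28, adjusted p = 0.0428), in which 14.7% of all genes were called lower, and without wild-type ovary 16 dpc replicate 2 (-0.83, adjusted p = 0.0471).

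In testes Rec8 was lower throughout. At 12 dpc the Wv/Wv arrays gave 7.12, 7.56 and 7.28, against 6.78 on the wild-type array (0.54 ± 0.40, adjusted p = 1). At 14 dpc they gave 6.05 and 6.02, against 6.09, 6.65 and 6.52 (-0.39 ± 0.31, adjusted p = 0.848). At 16 dpc they gave 5.57, 5.24 and 5.72, against 6.20, 6.37 and 5.71, and the difference of -0.58 ± 0.28 did not pass (adjusted p = 0.674), except with array weights (-0.76 ± 0.21, adjusted p = 0.0288). The 16 dpc groups overlapped by a single array on each side.

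Over the 12 groups the Rec8 means ran in the order of the sexes. Wild-type ovaries at 14 dpc stood first at 10.55, followed by Wv/Wv ovaries at 16 dpc (9.90), wild-type ovaries at 16 dpc (9.83) and Wv/Wv ovaries at 14 dpc (9.72), which were within the spread of each other. Ovaries at 12 dpc came next, 8.70 in Wv/Wv and 8.66 in wild type, and also did not differ beyond their spread. All testes lay below all ovaries, between 7.32 in Wv/Wv at 12 dpc and 5.51 in Wv/Wv at 16 dpc. For Smc1b and Stag3 the 2 highest groups were wild-type ovaries at 16 and 14 dpc, and wild-type testes at 14 dpc came next, at 8.16 for Smc1b and 8.46 for Stag3.

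The signal of Rec8 in Wv/Wv ovaries stood beside germ cell genes at low values. On 6 of the 8 Wv/Wv ovary arrays both Dazl and Ddx4 were under the limit, and on these Rec8 was 8.52 to 9.87. The mean of Rec8 was at the 92.2 percentile of all probe sets in Wv/Wv ovaries at 14 dpc and at the same percentile at 16 dpc. That of Smc1b was at the 51 percentile at 14 dpc and at the 39.3 percentile at 16 dpc. Rec8 was above the limit on 15 of 16 Wv/Wv arrays, Stag3 on 14 of 16 and Smc1b on 6 of 16, whereas all 3 genes were above it on 15 of 15 wild-type arrays.

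**Figure D2:**
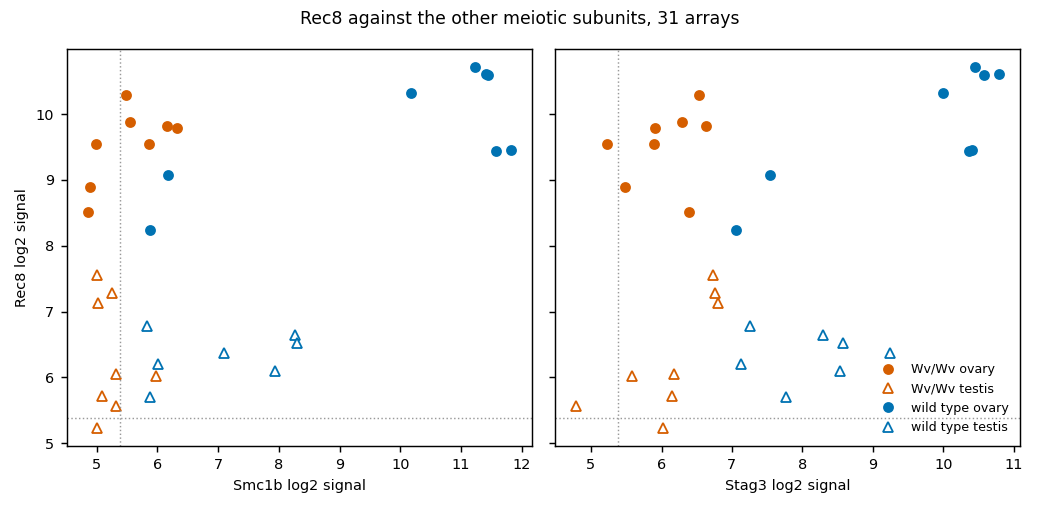
Log2 signal of Rec8 (y axis) against that of Smc1b (left panel) and Stag3 (right panel), 1 point per array, 31 arrays; filled circles are ovaries, open triangles testes, orange Wv/Wv and blue wild type, and dotted lines the limit of 5.39. Wv/Wv ovaries hold Rec8 values of 8.52 to 10.28 at Smc1b values of 4.86 to 6.33, a part of the plot where no testis lies.

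Genes whose 12 group means were most like those of each meiotic subunit were listed by Pearson's r, as a description over groups that share tissue and age. Nearest to Rec8 were Gdpd2, a glycerophosphodiesterase family gene (r = 0.98), the Iroquois transcription factor genes Irx3 (0.98) and Irx5 (0.98), and B4galt5, a galactosyltransferase gene (0.97). Irx3 is 1 of the 7 pregranulosa markers used here. Nearest to Smc1b were Fmr1nb (0.99) and 3 genes of meiosis: Spo11, which makes the meiotic double-strand breaks, and Sycp1 and Sycp3, parts of the synaptonemal complex (0.985 for each). Nearest to Stag3 were Map7d2 (0.99), Hormad1, a protein of the unsynapsed axis (0.98), Syce1, of the central element (0.98), and 8030474K03Rik (0.98). The r between Smc1b and Stag3 was 0.94, while Rec8 had r = 0.47 with Smc1b and 0.37 with Stag3.

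The comparison of testis with ovary showed the same division. In Wv/Wv gonads Rec8 was lower in testes by -3.68 ± 0.31 at 14 dpc (adjusted p = 4.05e-08) and by -4.39 ± 0.28 at 16 dpc (adjusted p = 1.77e-10, at least 20.3-fold). In wild-type gonads it was lower in testes by -4.12 ± 0.28 at 14 dpc (adjusted p = 5.53e-10) and by -3.74 ± 0.28 at 16 dpc (adjusted p = 2.26e-09). The genotype difference in testes minus that in ovaries was 0.44 ± 0.42 at 14 dpc (adjusted p = 1) and -0.65 ± 0.40 at 16 dpc (adjusted p = 0.731). The 16 dpc value passed with array weights (-0.99 ± 0.32, adjusted p = 0.0115) and in none of the other 11 settings. At 12 dpc Rec8 was lower in testes by -1.38 ± 0.31 in Wv/Wv (adjusted p = 0.0517) and by -1.88 ± 0.42 in wild type (adjusted p = 0.0634). Neither passed. The Wv/Wv difference passed in 5 of 12 other settings and on leaving out any 1 of 7 arrays of other groups, with the value at -1.38 and adjusted p of 0.014 to 0.0492. These arrays were wild-type ovary 12 dpc replicates 1 and 2, wild-type ovary 16 dpc replicates 2 and 3, wild-type testis 16 dpc replicates 1 and 3, and Wv/Wv ovary 16 dpc replicate 2. The wild-type difference passed in 4 of 12 settings, without wild-type ovary 12 dpc replicate 1 (-2.29, adjusted p = 0.031) and without wild-type ovary 16 dpc replicate 2 (-1.88, adjusted p = 0.0156).

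Smc1b and Stag3 differed by sex in wild type but did not pass in Wv/Wv. In Wv/Wv gonads Smc1b differed by -0.47 ± 0.33 at 14 dpc (adjusted p = 0.786) and -0.20 ± 0.29 at 16 dpc (adjusted p = 1). In wild-type gonads it was lower in testes by -2.77 ± 0.29 at 14 dpc (adjusted p = 6.69e-07) and by -5.29 ± 0.29 at 16 dpc (adjusted p = 1.5e-11). Stag3 differed by -0.27 ± 0.48 and -0.36 ± 0.43 in Wv/Wv (adjusted p = 0.968 and 0.988), against -1.95 ± 0.43 and -2.40 ± 0.43 in wild type (adjusted p = 0.00484 and 0.00053). The wild-type call of Stag3 at 16 dpc was lost when only the arrays compared were fitted.

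Of the 3 meiotic genes, Rec8 was the one called between testes and ovaries of Wv/Wv embryos at 14 dpc, where 3.69% of all genes were called (1.36% lower), and at 16 dpc, where 6.96% were (3.17% lower). With array weights Smc1b was called too at 16 dpc (-0.51 ± 0.15, adjusted p = 0.00619). In wild type all 3 were called at 14 dpc and at 16 dpc, against 5.93% of all genes (2.76% lower) and 9.65% (5.14% lower). At 12 dpc none was called in Wv/Wv (0.374% of all genes) or in wild type (0.253%).

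The genotype difference was itself compared between the sexes. For Smc1b it was less negative in testes than in ovaries by 2.30 ± 0.44 at 14 dpc (adjusted p = 0.0161) and by 5.10 ± 0.42 at 16 dpc (adjusted p = 8.03e-08). At 16 dpc Smc1b was under the low limit on 3 of 3 Wv/Wv testis arrays and 1 of 3 Wv/Wv ovary arrays, and at 14 dpc on 1 of 2 Wv/Wv testis arrays, so both genotype differences there are limited by background and these sizes are not exact. With the Wv/Wv means so close, the 5.10 carries much the same values as the wild-type sex difference of -5.29. Smc1b was the only member called, where 0.275% of all genes were called at 14 dpc, 0.813% at 16 dpc and 0% at 12 dpc. The 14 dpc call was lost in 3 of 12 other settings. It was also lost without wild-type ovary 14 dpc replicate 2 (2.07, adjusted p = 0.071), wild-type testis 14 dpc replicate 1 (2.19, adjusted p = 0.0639), Wv/Wv ovary 14 dpc replicate 3 (2.18, adjusted p = 0.0628) or Wv/Wv testis 14 dpc replicate 2 (1.98, adjusted p = 0.264). For Stag3 the test gave 1.68 ± 0.64 at 14 dpc (adjusted p = 1) and 2.04 ± 0.61 at 16 dpc (adjusted p = 0.154). The 14 dpc difference passed in the class-adjusted fit alone (1.81 ± 0.45, adjusted p = 0.0359), in which 1.75% of all genes were called higher. The 16 dpc difference passed in 6 of 12 settings, the class-adjusted fit included (2.34 ± 0.49, adjusted p = 0.0077, 2.32% called higher), and without wild-type testis 16 dpc replicate 2 (2.64, adjusted p = 0.0109).

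**Figure D3:**
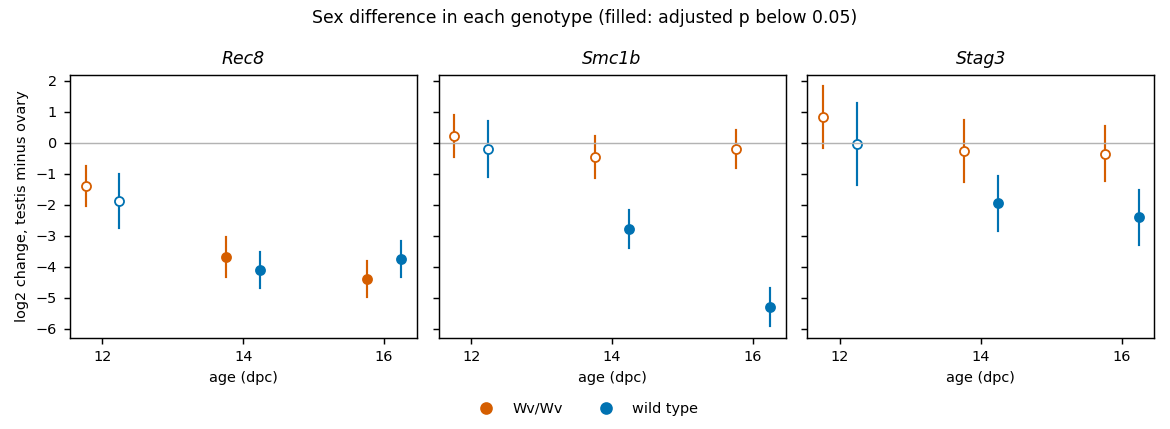
Log2 difference between testis and ovary (testis minus ovary) of Rec8, Smc1b and Stag3 at each age in dpc, Wv/Wv in orange left of wild type in blue; vertical lines are 95% confidence intervals and filled points passed an adjusted p of 0.05. Rec8 lies near -4 in both genotypes from 14 dpc, while Smc1b and Stag3 lie near 0 in Wv/Wv and below 0 in wild type.

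Across age, all 3 meiotic genes increased in wild-type ovaries between 12 and 14 dpc, where 2.59% of genes were called. Smc1b was higher at 14 dpc by 4.91 ± 0.33 (adjusted p = 1.19e-09), Stag3 by 3.11 ± 0.48 (adjusted p = 0.000239) and Rec8 by 1.89 ± 0.31 (adjusted p = 0.000589). The Rec8 call was lost without wild-type ovary 12 dpc replicate 1, which had the lower value of its pair (1.48, adjusted p = 0.0717). Between 14 and 16 dpc none was called in wild-type ovaries (0.357% of genes). Rec8 differed there by -0.71 ± 0.28, a difference that passed without wild-type ovary 16 dpc replicate 2 (-1.10, adjusted p = 0.0393). Over 12 other settings it ran from -0.81 to -0.38 and passed in 1. Narrow arrays numbered 1 at 14 dpc and 3 at 16 dpc in these ovaries, so age and the kind of array are partly mixed. With array weights Rec8 was lower at this step (-0.81, adjusted p = 0.0185) and Smc1b higher (0.80, adjusted p = 0.0359).

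In Wv/Wv ovaries no member was called at either step, where 1.54% and 0.0989% of genes were. Between 12 and 14 dpc Rec8 differed by 1.01 ± 0.31 (adjusted p = 0.123) and Smc1b by 1.24 ± 0.33 (adjusted p = 0.0567). The Rec8 step passed in 2 of 12 other settings. The Smc1b step passed in 5 of 12, and without wild-type ovary 14 dpc replicate 3 or any 1 of the 3 wild-type testis arrays of 16 dpc (1.24, adjusted p of 0.0217 to 0.0484).

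In wild-type testes Smc1b was higher at 14 dpc than at either other age. It was higher at 14 than at 12 dpc by 2.34 ± 0.42 (adjusted p = 0.0036, 0.786% of genes called, and 1 array at 12 dpc), and lower at 16 than at 14 dpc by -1.84 ± 0.29 (adjusted p = 0.00115, 0.83% called). The second step lost its call when only the arrays compared were fitted. Stag3 changed by 1.21 ± 0.61 and -0.42 ± 0.43 at these steps and passed at neither (adjusted p = 1 and 0.55), though the earlier step passed in 2 of 12 other settings. In Wv/Wv testes the single call was Rec8, lower at 14 than at 12 dpc by -1.29 ± 0.31 (adjusted p = 0.0267, 2.17% of genes called). It was lost in 4 of 12 settings. It was also lost without Wv/Wv testis 12 dpc replicate 2 (-1.17, adjusted p = 0.145) or 3 (-1.31, adjusted p = 0.0848), and without Wv/Wv testis 14 dpc replicate 1 (-1.30, adjusted p = 0.119) or 2 (-1.27, adjusted p = 0.259). No member was called between 14 and 16 dpc in Wv/Wv testes (0.11%).

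The 5 general subunits were high and varied less than the meiotic ones. The group means spanned 6.74 for Smc1b, 5.04 for Rec8 and 4.79 for Stag3, against 1.21 for Smc1a, 1.18 for Rad21, 1.16 for Stag1, 1.02 for Smc3 and 0.79 for Stag2. The range of group means put the meiotic genes at the 99.5 to 99.9 percentile of all genes, and the general ones at the 39.1 to 69.8 percentile. None of the 5 was called in any of the 23 comparisons of the fit over all arrays. In ovaries at 14 dpc 2 of the 3 meiotic and 0 of the 5 general genes were called, against 4.37% of all genes (4.08% lower), and at 16 dpc again 2 of 3 and 0 of 5, against 3.74% (2.35% lower). In testes the counts were 2 of 3 and 0 of 5 at 14 dpc (0.594% of all genes) and 1 of 3 and 0 of 5 at 16 dpc (0.484%). Wild-type testes at 12 dpc have 1 array, and the fit assumes that its spread is that of the other groups.

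**Figure D4:**
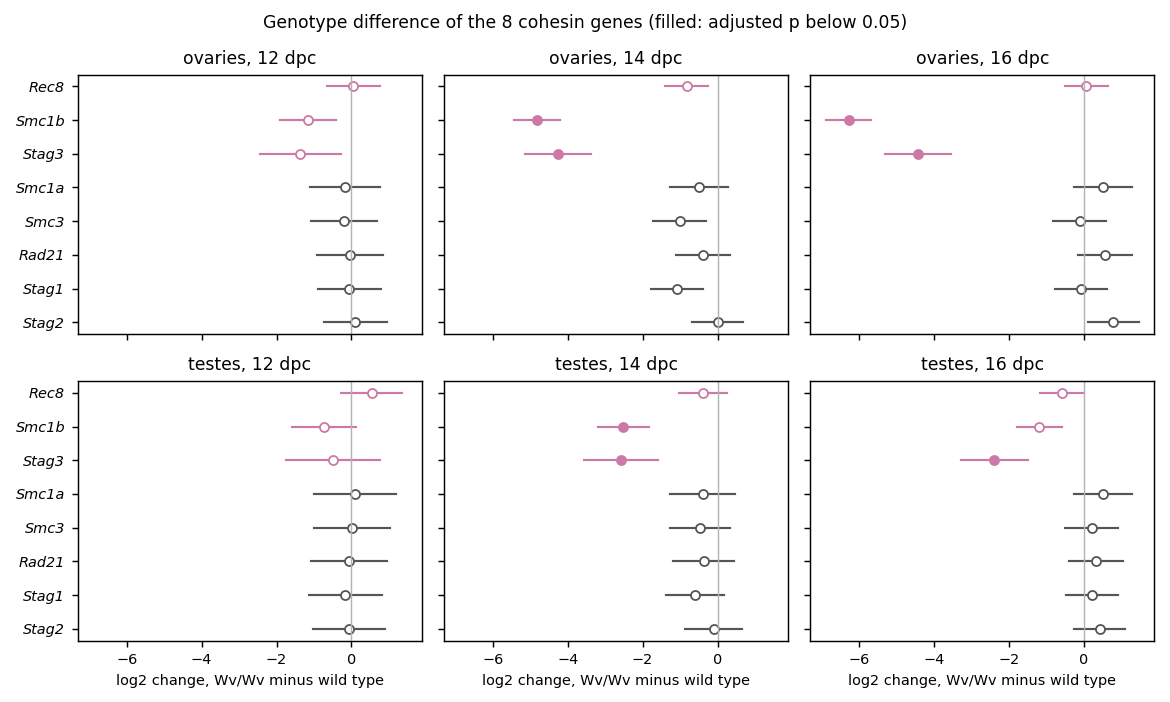
Log2 difference between Wv/Wv and wild type (Wv/Wv minus wild type) of the 8 genes in each tissue and age; horizontal lines are 95% confidence intervals, meiotic genes are pink, general ones dark, and filled points passed an adjusted p of 0.05. Smc1b and Stag3 lie far below 0 in ovaries at 14 and 16 dpc, and the intervals of Rec8 and of the general genes lie between -2 and 2 in every panel.

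Smc3, the subunit shared by mitotic and meiotic rings, was 9.93, 9.20 and 9.01 in Wv/Wv ovaries at 14 dpc, against 10.17, 10.59 and 10.44 in wild-type ovaries. Stag1, a peripheral subunit of mitotic rings, was 9.47, 8.36 and 8.28 in Wv/Wv ovaries, against 9.44, 10.06 and 9.89 in wild-type ovaries. The 2 narrow Wv/Wv arrays were the lowest for both genes, and for Stag1 the wide Wv/Wv array reached the narrow wild-type array. The differences, -1.02 ± 0.34 for Smc3 (adjusted p = 0.108) and -1.09 ± 0.33 for Stag1 (adjusted p = 0.0676), did not pass.

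Both passed in 6 of 13 other settings: cyclic loess, quantile normalization, centring on housekeeping genes, array weights, and both fits with the kind of array as a term. In the class-adjusted fit Smc3 was lower by -0.81 ± 0.13 (adjusted p = 6.72e-05) and Stag1 by -0.84 ± 0.14 (adjusted p = 9.01e-05), where the same 14.7% of all genes were called lower. Within narrow arrays at 14 dpc Smc3 differed by -1.06 and Stag1 by -1.12, and within wide arrays by -0.58 and -0.50, from 1 or 2 arrays a side. Both also passed without wild-type testis 16 dpc replicate 1 (Smc3 -1.02, adjusted p = 0.00623; Stag1 -1.09, adjusted p = 0.012) and without Wv/Wv ovary 14 dpc replicate 1 (Smc3 -1.29, adjusted p = 0.0308; Stag1 -1.48, adjusted p = 0.00717).

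Stag1 has 6 probe sets, and 2 of the dimmer ones were called lower in Wv/Wv ovaries at 14 dpc when every probe set was tested, by -0.86 ± 0.17 (adjusted p = 0.00486) and -0.86 ± 0.24 (adjusted p = 0.0479). The brightest one, used throughout, did not pass in that test. At 16 dpc all 3 wild-type ovary arrays were narrow, against 1 of 3 Wv/Wv arrays. Smc3 differed there by -0.11 ± 0.34 (adjusted p = 0.858) and Stag1 by -0.08 ± 0.33 (adjusted p = 0.898). In the class-adjusted fit these became -0.52 ± 0.14 (adjusted p = 0.0114) and -0.58 ± 0.14 (adjusted p = 0.00785), where 8.95% of all genes were called lower. Within narrow arrays, 1 in Wv/Wv against 3 in wild type, they were -0.59 and -0.60.

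Stag2, the other peripheral subunit of mitotic rings, was 11.44, 10.70 and 11.39 in Wv/Wv ovaries at 16 dpc, against 10.44, 10.37 and 10.36 in wild-type ovaries. The narrow Wv/Wv array was nearest to wild type. The difference of 0.79 ± 0.33 did not pass (adjusted p = 0.16). It was 0.31 within narrow arrays. It passed in 5 of 13 settings, the class-adjusted fit included (0.32 ± 0.11, adjusted p = 0.0439, 7.56% of all genes called higher), and without wild-type testis 16 dpc replicate 1 (0.79, adjusted p = 0.0329). Smc1a, the mitotic counterpart of Smc1b, and Rad21, the mitotic kleisin, differed between Wv/Wv and wild-type ovaries by -0.50 ± 0.37 and -0.40 ± 0.35 at 14 dpc and by 0.52 ± 0.37 and 0.57 ± 0.35 at 16 dpc, and each passed at both ages with array weights alone.

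In testes the general genes differed between Wv/Wv and wild type by -0.60 to -0.11 at 14 dpc and by 0.21 to 0.51 at 16 dpc. The single wild-type testis array of narrow spread at 16 dpc was the lowest for all 5, for example 9.07 for Smc1a against 10.96 and 10.94 on the other wild-type testes. Within wide arrays at 16 dpc Smc3 differed by -0.19, Rad21 by -0.10, Stag1 by -0.07 and Stag2 by 0.11.

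Smc1a and Stag2 lie on the X chromosome, and neither was called between testis and ovary in either genotype. Without wild-type testis 16 dpc replicate 1, however, Smc1a was higher in wild-type testes at 16 dpc by 0.94 (adjusted p = 0.0256) and Rad21 by 1.22 (adjusted p = 0.00361), against 0.31 ± 0.37 and 0.64 ± 0.35 with it. In the class-adjusted fit Rad21 was higher in testes at 16 dpc by 0.38 ± 0.12 in Wv/Wv (adjusted p = 0.028) and by 0.54 ± 0.16 in wild type (adjusted p = 0.0228), where 10.4% and 7.98% of all genes were called higher. In Wv/Wv at 16 dpc that fit also called Stag1 higher in testes (0.38 ± 0.13, adjusted p = 0.044) and Stag2 lower (-0.33 ± 0.10, adjusted p = 0.0193), where 10.1% of genes were called lower. All wild-type ovary arrays at 16 dpc were narrow, and the wild-type testis arrays left in that fit were wide.

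**Figure D5:**
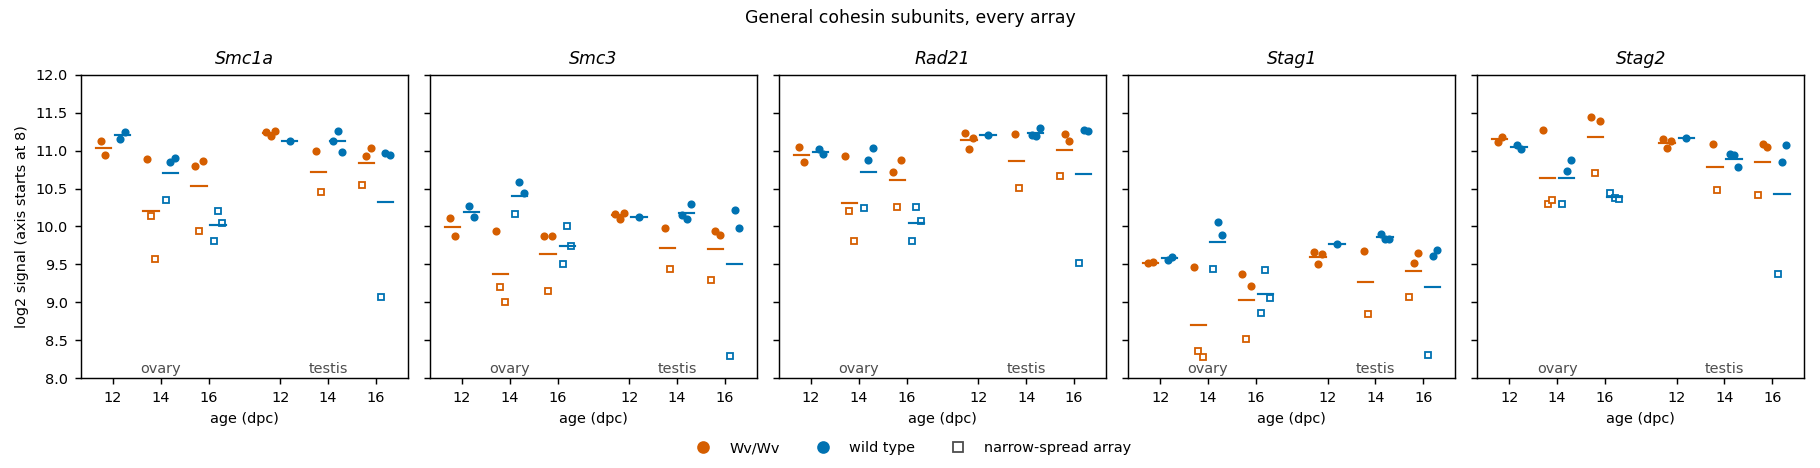
Log2 signal of Smc1a, Smc3, Rad21, Stag1 and Stag2 on every array, by tissue and age in dpc, Wv/Wv in orange left of wild type in blue, with bars for group means and open squares for narrow-spread arrays; the y axis starts at 8. Narrow-spread arrays lie lowest in most groups, and wild-type testis 16 dpc replicate 1 is the lowest wild-type testis array in each panel.

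Other genes of the cohesin pathway were read from a list of 17, of which 16 were measured. Most of them load, acetylate, release or protect the ring. The list also holds Rad21l, a further meiotic kleisin, and Ctcf, a DNA-binding factor. In ovaries at 14 dpc 4 of 16 were lower in Wv/Wv and 0 higher, where 4.08% of all genes were lower, with a median of -0.66 over the list and 0.00 over all genes. Esco2, which acetylates Smc3 in S phase, was lower by -4.13 ± 0.72 (adjusted p = 0.000678), and Espl1, the separase that cuts the kleisin, by -2.37 ± 0.50 (adjusted p = 0.00453). The shugoshin genes Sgo2a and Sgo1, which shield centromeric cohesin, were lower by -1.10 ± 0.25 (adjusted p = 0.00843) and -0.97 ± 0.21 (adjusted p = 0.00636). At 16 dpc Esco2 was the 1 called gene (-2.56 ± 0.72, adjusted p = 0.0468), against 2.35% of all genes lower. The class-adjusted fit called 7 of 16 lower at 14 dpc and 7 lower and 1 higher at 16 dpc. Of all genes it called 14.7% lower at 14 dpc, and 8.95% lower and 7.56% higher at 16 dpc. The 4 genes named here were among those called in that fit at both ages. No gene of the list was called by genotype in testes at any age, and none in testes at 14 or 16 dpc in the class-adjusted fit.

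Between testes and ovaries of Wv/Wv embryos Sgo2a was higher in testes by 1.25 ± 0.28 at 14 dpc (adjusted p = 0.00756) and by 1.42 ± 0.25 at 16 dpc (adjusted p = 0.000361). Sgo1 was higher by 0.90 ± 0.24 (adjusted p = 0.0288) and 1.14 ± 0.21 (adjusted p = 0.000722), and Plk1, a mitotic kinase that removes cohesin from chromosome arms, by 1.25 ± 0.34 at 16 dpc (adjusted p = 0.0201). These were 2 of the 16 genes at 14 dpc and 3 at 16 dpc, against 2.32% and 3.79% of all genes higher, and in wild type none of the 16 was called by sex. The class-adjusted fit called more. In Wv/Wv it gave 6 of 16 higher in testes at 14 dpc, and 6 higher and 1 lower at 16 dpc. Of all genes, 9.6% were higher at 14 dpc, and 10.4% higher and 10.1% lower at 16 dpc. In wild type it gave 2 higher and 3 lower at 14 dpc, and 1 higher and 2 lower at 16 dpc. Of all genes, 7.76% were higher and 10.2% lower at 14 dpc, and 7.98% higher and 8.11% lower at 16 dpc. Markers of dividing cells moved in the same comparison: 2 of 12 mitotic genes were higher in Wv/Wv testes than in Wv/Wv ovaries at 14 dpc and 6 of 12 at 16 dpc, and 12 of 12 were at both ages in the class-adjusted fit (medians 1.01 and 1.21). In wild type 0 of 12 was called, and in the class-adjusted fit 2 were higher at 14 dpc, and 3 higher and 1 lower at 16 dpc. Their part was not tested.

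Of 13 genes of the related SMC complexes, condensin and Smc5/6, 1 was called by genotype, against 4.08% of all genes lower in ovaries at 14 dpc and 2.35% at 16 dpc. Ncapg, a condensin subunit, was lower in Wv/Wv ovaries by -2.04 ± 0.45 at 14 dpc (adjusted p = 0.00821) and by -1.62 ± 0.45 at 16 dpc (adjusted p = 0.0475). The class-adjusted fit called 8 of 13 lower at each age, with medians of -0.63 at 14 dpc and -0.60 at 16 dpc, against 14.7% and 8.95% of all genes. Of 12 mitotic genes measured, 4 were lower in Wv/Wv ovaries at 14 dpc (Bub1, -2.85 ± 0.47; Cenpf, -2.00 ± 0.45; Kif11, -1.58 ± 0.37; Ccnb2, -1.57 ± 0.32) and Bub1 alone at 16 dpc (-2.36 ± 0.47, adjusted p = 0.00452). The class-adjusted fit called 10 of 12 lower at each age, with medians of -0.89 at 14 dpc and -0.96 at 16 dpc. The counts of all these lists thus depended on whether the kind of array was a term, and its part was not tested further.

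Genes of the meiotic chromosome axis, with others of meiosis, moved with Smc1b and Stag3. The list of 16 held synaptonemal complex, axis and recombination genes, and also Terb1 and Majin (telomere attachment) and Stra8 and Meioc (meiotic entry). All 16 were lower in Wv/Wv ovaries at 14 dpc (median -3.83) and at 16 dpc (median -4.75), against 4.08% and 2.35% of all genes. In Wv/Wv testes 8 of 16 were lower at 14 dpc and 6 of 16 at 16 dpc, against 0.594% and 0.484% of all genes. Sycp3, of the lateral element, was lower by -7.57 ± 0.46 in ovaries at 16 dpc (at least 84.7-fold) and by -2.89 ± 0.46 in testes of that age (at least 2.22-fold). Between the sexes, 0 of 16 was called in Wv/Wv at 14 or 16 dpc (Syce2 alone in the class-adjusted fit, at both ages), and 16 of 16 were lower in wild-type testes than in wild-type ovaries at both ages, against 2.76% and 5.14% of all genes.

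Germ cell and somatic marker lists gave the following counts. Of the 10 germ cell genes, 10 were lower in Wv/Wv ovaries at 14 dpc and 8 at 16 dpc, against 4.08% and 2.35% of all genes. In Wv/Wv testes 10 and 9 were lower at these ages, against 0.594% and 0.484%. None of the 7 pregranulosa genes was called between Wv/Wv and wild-type ovaries at any age, and all 7 were lower in testes than in ovaries at 14 and 16 dpc in both genotypes, against 1.36% and 3.17% of all genes in Wv/Wv and 2.76% and 5.14% in wild type. Those are also the comparisons in which Rec8 was called from 14 dpc on. Sertoli genes moved the other way, with 6 of 7 higher in testes at 14 dpc and 6 of 7 at 16 dpc in Wv/Wv, and 6 and 4 of 7 in wild type, and all 4 Leydig genes were higher in testes at both ages in both genotypes. The share of all genes higher in testes at these ages was 2.32% and 3.79% in Wv/Wv, and 3.17% and 4.5% in wild type. None of the 6 endothelial genes was called by genotype in ovaries. In Wv/Wv ovaries at 16 dpc 1 of 6 macrophage genes was higher, where 3.74% of all genes were called (2.35% lower). Their part in the Rec8 values was not tested.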

How the data were processed

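The authors deposited log2 signals of 45101 probe sets on 31 arrays. Per the submitters' processing notes these are RMA values. Neither the RMA version nor the arrays that shared a run is given in the sources used here. Per the labels' protocols, 50 ng of total RNA made biotinylated cRNA with a 3′ IVT Express kit. RMA forces like distributions on the arrays of a run, so a shift in total RNA is not visible. With SDs of 1.77 to 2.39, the 31 deposited arrays do not share a single distribution. Precision is set by how many arrays a group holds, since an array has no depth.

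Of the probe sets 34958 have 1 gene symbol in the platform annotation, which gave 18194 genes by the highest mean. All 8 cohesin genes passed the low-signal filter. R 4.3.3 and its package limma 3.58.1 gave the changes (lmFit then eBayes on 12 group means, with 19 residual and 4.00 prior degrees of freedom), with two-sided p-values adjusted by Benjamini-Hochberg over all genes within each of 23 comparisons and called below 0.05. Errors of differences are SEs. The fit was tested on simulated data. The smallest SD of the difference between 2 arrays of a group was 0.179 over 27 pairs, and none was taken for a duplicate.

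The members, gene lists and alternatives were chosen with earlier results of these data known. Named genes were all members, up to 4 called genes of each other list with the largest change, the 4 genes most like each meiotic subunit, and marker genes. Alternatives were 3 normalizations, a low-signal filter, all or second probe sets, array weights, a trended prior, smaller fits, the kind of array as a term, a 2-fold minimum, the replicate number as a block and each array left out.

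Same-numbered replicates of both genotypes deviated together in testes at 16 dpc, where all 3 pairs correlated (0.60 to 0.72). Both replicates 1 there are narrow arrays. In ovaries at 12 dpc both pairs had r = 0.46, and with 2 arrays a group these values are the same by construction. In ovaries at 14 dpc the pairs deviated in opposite directions (-0.82 to -0.53). Each of these pairs joins a narrow array with a wide one: replicate 1 is narrow in wild type, and replicates 2 and 3 are narrow in Wv/Wv. These values are thus mixed with the kind of array. Of all 13 pairs 5 were above 0.1. Promoters and coordinates are from RefSeq tables of GRCm38.p6.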

Additional observations from a re-analysis of the deposited data

Results flagged for a closer look

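The genotype difference of Smc1b was not the same in the 2 sexes by the test of the difference itself. Wv/Wv minus wild type was -2.52 in testes and -4.82 in ovaries at 14 dpc, a difference of 2.30 ± 0.44 (SE, adjusted p = 0.0161). At 16 dpc it was -1.18 in testes and -6.28 in ovaries, a difference of 5.10 ± 0.42 (adjusted p = 8.03e-08). Wild-type means of Smc1b were 8.16 in testes and 10.94 in ovaries at 14 dpc, and 6.32 in testes and 11.62 in ovaries at 16 dpc, while the Wv/Wv means lay between 5.14 and 6.12, near the low-signal limit of 5.39, so the sizes of both genotype differences are limited by background.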

How the results depend on the processing

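Over 12 or 13 other settings, the calls of Smc1b and Stag3 in ovaries at 14 and 16 dpc and of Rec8 between the sexes at 14 and 16 dpc kept their direction and stayed below an adjusted p of 0.05. Calls among the 5 general genes depended on the setting. By genotype (30 tests, 0 called) there were 4 with cyclic loess, 3 with quantile normalization, 3 with housekeeping centring, 7 with array weights, 3 with the kind of array as a term and 5 with that term and 1 array left out. By sex in Wv/Wv (15 tests, 0 called) array weights gave 3 and the kind of array with 1 array left out gave 4. By sex in wild type (15 tests, 0 called) the 6 settings named for genotype gave, in that order, 2, 1, 1, 7, 3 and 2 calls. For the sex by genotype difference (15 tests, 0 called) array weights gave 4 and the kind of array 1, and by age (40 tests, 0 called) array weights gave 11 and the kind of array with 1 array left out gave 1. Among meiotic genes, array weights gave 4 calls in place of 2 by sex in Wv/Wv (9 tests), and for the sex by genotype difference (9 tests, 2 called) there was 1 call with only the arrays compared and 4 with the kind of array and 1 array left out. Among these settings, the share of all genes called is given for the class-adjusted fit alone. In ovaries at 14 dpc 14.7% of all genes were called lower there, against 4.08% in the fit over all arrays. Counts in the other settings, and in the fits leaving out each array, have no such share. They describe the settings and are no result about cohesin genes. The cause was not tested.

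Of 184 member results, 67 changed sign in at least 1 other setting (6 of meiotic and 61 of general genes). None of them was called in the fit over all arrays, and the largest was 0.80 in size there. In 4 the turned value was called. Between testis and ovary in wild type at 16 dpc, Smc3 was 0.38 with array weights, and with the kind of array as a term Stag1 was -0.49 and Stag2 -0.53. The genotype difference of Stag1 in testes minus that in ovaries at 16 dpc was -0.40 with array weights.

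Leaving out each array gave, for meiotic genes, 6 to 8 calls by genotype (7 with all arrays), 2 to 3 by sex in Wv/Wv (2), 6 to 7 by sex in wild type (6), 1 to 3 for the difference of differences (2) and 5 to 7 by age (6). For general genes it gave 0 to 3 by genotype, 0 to 0 by sex in Wv/Wv, 0 to 2 by sex in wild type, and 0 to 0 for the difference of differences and by age. Without the only wild-type testis array at 12 dpc its comparisons have no value. The second-probe-set setting exists for general genes only. With the replicate number as a block, the counts for meiotic genes were 7 by genotype, 2 by sex in Wv/Wv, 6 by sex in wild type, 2 for the difference of differences and 6 by age. They were 0 for general genes, and no call of the 184 member results changed. That block is shared by all 12 groups, so a pairing of the testes at 16 dpc alone was not fitted.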
